A study of Drosophila melanogaster with 2 samples.

Results

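The genes encoding the general transcription factors of RNA polymerase II and the Mediator coactivator were examined in a chromatin immunoprecipitation and sequencing experiment on *Drosophila melanogaster* embryos. The genes were taken by symbol (Taf followed by a digit, TfII, or MED followed by a digit), which gave 49 of the 13945 annotated protein-coding genes of the 6 chromosome arms: 15 Taf genes, 9 TfII genes and 25 MED genes. All samples came from 1 transgenic line that stably expresses the repressor E(spl)m8-HLH with GFP at its C-terminus, and the fusion was precipitated with an antibody against GFP. Embryos of both sexes were taken whole at 4 to 14 h, the chromatin was sonicated to 200 to 800 bp, and the only group held 2 biological replicates, numbered 2 and 3. The experiment has no second condition, so every comparison below is between genes. Where fewer cells with the fusion on the DNA and less of it per cell would give the same signal, whole embryos cannot tell these apart.

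Transcription by RNA polymerase II starts with a set of general factors that assemble at the promoter. TFIID, made of the TATA-binding protein TBP and TBP-associated factors (TAFs), recognises the core promoter; TFIIA and TFIIB stabilise it and place the polymerase; TFIIF and TFIIE bring in the polymerase and TFIIH. Mediator relays signals from sequence-specific factors to the polymerase through a head, a middle and a tail module joined by the scaffold subunit MED14. E(spl)m8-HLH belongs to the Hairy/E(spl) family of repressors, which recruit the corepressor Groucho to DNA, and the E(spl) genes are switched on by Notch. Members of the family are known to bind the E-box CACGTG and the class C site CACGCG. The general factors and Mediator serve most cell types.

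The sequence under the summit, the position of strongest enrichment in a peak, is shown for 6 of the bound genes, chosen because they span the layouts and motifs described below and overlap no annotated exon. Each is the plus strand of the 101 bp around the summit, read from the RefSeq copy of Release 6. Capitals mark any match to 8 motifs searched on both strands: the E-box CACGTG of the family, the class C site CACGCG, the DREF core ATCGATA, the core of Ohler motif 1 written GGTCACAC, the further E-boxes CAGCTG and CATATG, the letters of a TATA box as TATAAA, and the homeodomain site TAATTA.
MED17 (chr3R:18188825-18188925): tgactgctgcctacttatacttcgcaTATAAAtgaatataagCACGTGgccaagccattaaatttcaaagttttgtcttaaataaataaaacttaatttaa
MED27 (chr3R:5654946-5655046): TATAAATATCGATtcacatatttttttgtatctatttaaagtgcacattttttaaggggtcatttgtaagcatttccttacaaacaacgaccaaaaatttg
Taf9 (chrX:17844797-17844897): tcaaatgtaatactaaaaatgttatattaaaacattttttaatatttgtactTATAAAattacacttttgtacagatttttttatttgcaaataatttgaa
Taf12 (chr3R:11678189-11678289): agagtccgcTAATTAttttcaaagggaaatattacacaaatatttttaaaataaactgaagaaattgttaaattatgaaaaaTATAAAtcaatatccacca
Taf4 (chr3L:16113631-16113731): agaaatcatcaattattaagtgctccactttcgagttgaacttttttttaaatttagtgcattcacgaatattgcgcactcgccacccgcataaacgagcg
TfIIA-S (chr3R:23891080-23891180): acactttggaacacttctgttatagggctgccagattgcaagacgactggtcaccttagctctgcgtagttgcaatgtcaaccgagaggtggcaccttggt

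MED17, a core subunit of the Mediator head, was the only one of the 24 genes with CACGTG in this window (4.17%, exact binomial 95% interval 0.105 to 21.1%), against 2.00% of all 6152 summits and 1.74% of the 2474 summits within 500 bp of a transcription start site (TSS). No window held CACGCG, against 3.32% of all summits, or GGTCACAC, against 0.780%. MED27 held ATCGATA, read on the minus strand and directly beside a TATAAA (4.17% of the genes, against 2.60% of all summits and 5.13% of promoter summits). CAGCTG and CATATG were each found once, at MED25 and TfIIS, against 4.84% and 4.14% of all summits. TAATTA was at Taf12, Taf10, TfIIA-L and MED14 (16.7%, against 9.85%). TATAAA was in 9 of the 24 windows (37.5%, interval 18.8 to 59.4%), against 21.4% of all summits and 22.9% of promoter summits. The windows of these genes had a median GC content of 29.2%, against 32.7% for all summits and 31.7% for promoter summits. The windows of Taf4 and TfIIA-S, where the gene's own start was the nearest, held none of the 8 motifs, which says only that these letters are not in these windows. With 100 bp on each side CACGCG was found at TfIIA-S and GGTCACAC at MED11 (4.17% each), against 6.11% and 1.63% of all summits.

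Bound, for a gene, means that at least 1 summit of the authors' optimal peak set fell inside the gene or no more than 2 kb from either end. By this rule 24 of the 49 genes were bound, 49.0% (exact binomial 95% interval 34.4 to 63.7%), against a background of 36.8% of all protein-coding genes. The genes are short, with a median length of 1330.0 bp against 2166 bp for protein-coding genes, and longer genes are bound more often, from 17.0% in the shortest of 10 length classes to 65.0% in the longest. At the shares of other genes in the same length classes there would be 15.5 bound genes, and the observed number was 1.55 times that of genes of like length. Of the TAF genes 9 of 15 were bound against 4.91 (1.83 times), of the TfII genes 4 of 9 against 2.69 (1.49 times), and of the Mediator genes 11 of 25 against 7.89 (1.39 times). The intervals of these shares, 32.3 to 83.7%, 13.7 to 78.8% and 24.4 to 65.1%, each span the background of 36.8%. Each of the 3 family ratios changed side under some other rule. By nearest TSS alone the TAF genes were at 0.341 and the Mediator genes at 0.223, with all pooled peaks the TAF genes were at 0.964, and in the stronger 50% of peaks the TfII genes were at 0.621. These are descriptions of a list of genes chosen by name, intervals cover counting error only, and neighbouring genes can share a summit.

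By role the bound share varied, but each role holds few genes and the intervals are wide. Of the tail and scaffold subunits of Mediator with a MED symbol, 6 of 7 were bound against 2.75 expected for their length. These were MED14, MED15, MED16, MED24, MED25 and MED27, with MED23 unbound. In the head 3 of 10 were bound against 2.77 (MED11, MED17 and MED30), and in the middle 2 of 8 against 2.38 (MED4 and MED31). The ratio for the middle, 0.840, changed side in the strongest peaks of replicate 2 (1.60) and replicate 3 (1.31), and that for the head, 1.08, in those of replicate 3 (0.750). Among TAFs with a histone fold, the domain through which TAFs pair, 7 of 11 were bound against 3.22: Taf4, Taf8, Taf9, Taf10, Taf10b, Taf12 and Taf13. Of the 4 other TAFs, Taf2 and Taf5 were bound, against 1.68 expected, and Taf1 and Taf7 were unbound. TFIIA and TFIIB genes were bound in 3 of 4 cases against 1.11 (TfIIA-L, TfIIA-S and TfIIB, but not the paralogue TfIIA-S-2). None of the 4 genes of TFIIE and TFIIF had a summit of the optimal set, against 1.25 expected, and with 4 genes the interval for this share reaches 60.2%. TfIIS, an elongation factor that rescues stalled polymerase, was bound. By nearest TSS alone the ratios for tail and scaffold subunits and for histone-fold TAFs changed side too, to 0.630 and 0.523. For a summit within 500 bp of an own TSS they were 1.82 and 1.19, and with all pooled peaks 1.43 and 1.10. The intervals of the bound shares were 42.1 to 99.6% for tail and scaffold subunits and 30.8 to 89.1% for histone-fold TAFs. They were 6.67 to 65.2% for the head and 3.19 to 65.1% for the middle. The counts by role were not stratified by divergent starts, described below, and the differences between roles were not tested.

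**Figure D1:**
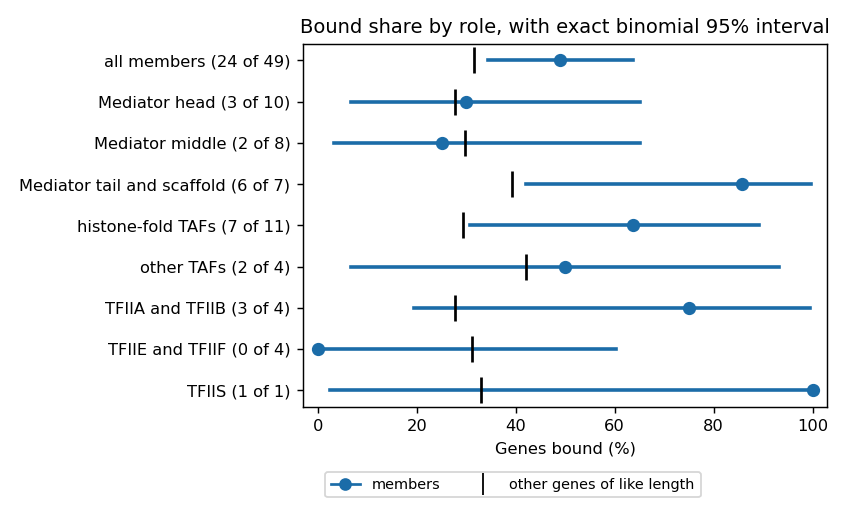
Share of genes bound, in percent, for all 49 genes and for each role. Points are the observed shares, lines their exact binomial 95% intervals, and black ticks the share in other protein-coding genes of like length; all 49 genes sit at 49.0% and the intervals of single roles are wide.

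TAF genes held 5 of the 5 strongest summits of the set. At Taf13, Taf12 and Taf9 the counted summit lay 1451 to 2686 bp from the gene's own start, close to the start of another gene. At Taf5, which carries WD40 repeats and organises TFIID, the signal, the authors' enrichment value of the peak, was 960.1 in the optimal set (rank 397 of 6152). In the lists of the single replicates, each of 30000 peaks, the same site stood at 556 (rank 316) in replicate 2 and 407 (rank 543) in replicate 3. Taf13, the histone-fold partner of Taf11, had 953 (rank 406), with 494 and 465 in replicates 2 and 3. Taf12, a histone-fold partner of Taf4, had 885 (rank 479), with 549 and 338. Taf9, which TFIID shares with the SAGA complex, had 854 (rank 519), with 495 and 363. Taf2, which contacts DNA at the start site, had 825 (rank 557). Of these 5 genes it had the replicates farthest apart: 438 (rank 541) in replicate 2 and 159.8 (rank 2706) in replicate 3.

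The strongest Mediator gene was MED27, a tail subunit, with 782 (rank 614; 485 in replicate 2 and 288 in replicate 3). Taf10b followed with 724 (409.8 and 287). Next came MED30, a head subunit, with 619 (312 and 305), MED15, a tail subunit contacted by activators, with 612 (286 and 327), and MED17 with 516 (256 and 265). Taf10 had 478 (243 and 199) and MED31, of the middle module, 426 (210.3 and 223). These 12 genes all stood above the median of all bound protein-coding genes, 360.4, and so did Taf4 with 391. Taf4 is a large TAF contacted by activators.

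The remaining 11 bound genes stood below that median, among them all 4 bound TfII genes: TfIIB with 348, TfIIA-L with 282, TfIIA-S with 252 and TfIIS with 238. The 4 weakest were Taf8 with 234, MED25 with 199, and MED11 and MED14 with 179 each, close to the lowest signal of the optimal set, 169. Over the 24 genes the median was 408, against 344 for bound genes of like length. By family it was 825 over the 9 TAF genes, 267 over the 4 TfII genes and 319.6 over the 11 Mediator genes. The summit behind these values lay within 500 bp of the own start at 3 of the 9, 3 of the 4 and 7 of the 11 genes. The strongest summits at 7 TAF genes exceeded those of at least 75.0% of bound genes in their own length class (92.2% for Taf5), whereas those at Taf4 and Taf8 exceeded 50.7% and 24.6%. A value of 500 was passed by 10 of the 24 genes (41.7%), and by 33.6% of all bound genes.

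**Figure D2:**
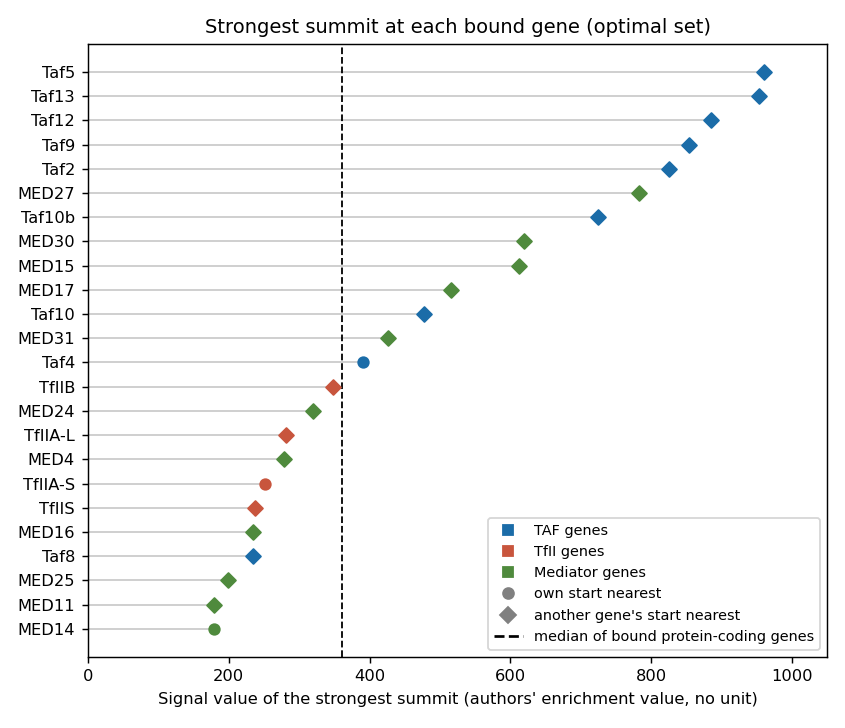
Signal value of the strongest summit of the optimal set at each of the 24 bound genes, in the authors' unit. Colour gives the family and shape the owner of the nearest start site; the dashed line is the median of all bound protein-coding genes, 360.4, and the TAF genes fill the top 5 places from 825 to 960.1.

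The summits lay at promoters, but rarely nearest to the start of the named gene. In 23 of the 24 cases the strongest summit lay within 300 bp of an annotated TSS, yet that start belonged to another gene in 21 cases. Within 500 bp of a TSS the count was also 23, against 3660 of the 5137 bound protein-coding genes. The gene's own start was nearest at Taf4 (distance -109 bp, negative values being upstream, to an internal start, so that the summit lay in the gene body), TfIIA-S (-70 bp) and MED14 (-1701 bp). Among all bound protein-coding genes, not matched for length or divergent starts, the own start was nearest in 48.2% of cases, against 12.5% here. Of the 21 summits nearest to another gene, 18 lay upstream of that gene's start, at a median of -123 bp (range -300 to 65 bp). When each summit was given only to the gene with the nearest start, 4 of the 49 genes kept one (8.16%, interval 2.27 to 19.6%): Taf4, TfIIA-S, MED14 and, through a second and weaker summit, TfIIA-L. The background for this rule is 22.9% of protein-coding genes, and genes of like length would give 8.85, so the ratio turned from 1.55 to 0.452.

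In 9 of the 24 genes (37.5%, against an unmatched 10.5% of all bound genes) the strongest summit lay between the gene's own start and a diverging start to which it was nearer. At Taf5 it lay 165 bp upstream of Taf5 (distance -165 bp) and 136 bp upstream of Pex6 (-136 bp), a peroxisomal ATPase gene. At Taf2 the distances were -274 bp to Taf2 and -147 bp to the calpain gene CalpB. At MED27 they were -143 bp, and -135 bp to elm. MED30 shared its summit with Rev1, a translesion DNA polymerase gene (-185 and -89 bp), MED17 with CG12321 (-197 and -168 bp), TfIIB with Bug22 (-290 and -130 bp) and MED16 with CG11170 (-131 and -128 bp). At MED27 and MED16 both starts were thus almost equally far from the summit. MED25 shared one with Hs6st, a heparan sulfate sulfotransferase gene (-389 and -46 bp), and an internal start of TfIIA-L with pll, a kinase gene of the Toll pathway (-197 and -51 bp). Fragments of 200 to 800 bp do not resolve which of such close starts a protein sits at.

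At 10 other genes (41.7%, against an unmatched 27.4% of all bound genes) the strongest summit was over 500 bp from the gene's own start and within 500 bp of another gene's. The summit counted for Taf13 lay downstream of it (2451 bp from its start) at the start of Pyroxd1 (-37 bp). A second, weaker one (239) lay 130 bp upstream of Taf13 (-130 bp), but only 7 bp from the start of nesd. Those for Taf12 (1451 bp) and Taf9 (2686 bp) lay at CG18476 (-123 bp) and at the mitochondrial carrier gene Ucp4A (-102 bp), with no summit within 500 bp of the start of Taf12 or Taf9. Taf10 and Taf10b, whose products are separate paralogues, start 45 bp apart and run in opposite directions, and no summit lay within 500 bp of either start. The summit counted for Taf10 (478, -1869 bp) lay at aph-1 (-212 bp), which encodes a subunit of the gamma-secretase that cleaves Notch. It lay within reach of Taf10b too, the only summit counted for 2 of the 49 genes. The stronger one counted for Taf10b (724, 2026 bp) lay at Snx21 (-154 bp). The summit for MED15 lay at CG4297 (-513 and -300 bp), that for TfIIS at solo (-731 and -168 bp), that for Taf8 at Mvb12, of the ESCRT-I complex (-703 and 47 bp), and that for MED11 at Nufip (2558 and -47 bp). At MED31 and MED4 the summit lay within 500 bp upstream of the own start (-184 and -178 bp) but just inside CG9775 (59 bp) and an antisense RNA gene (65 bp).

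**Figure D3:**
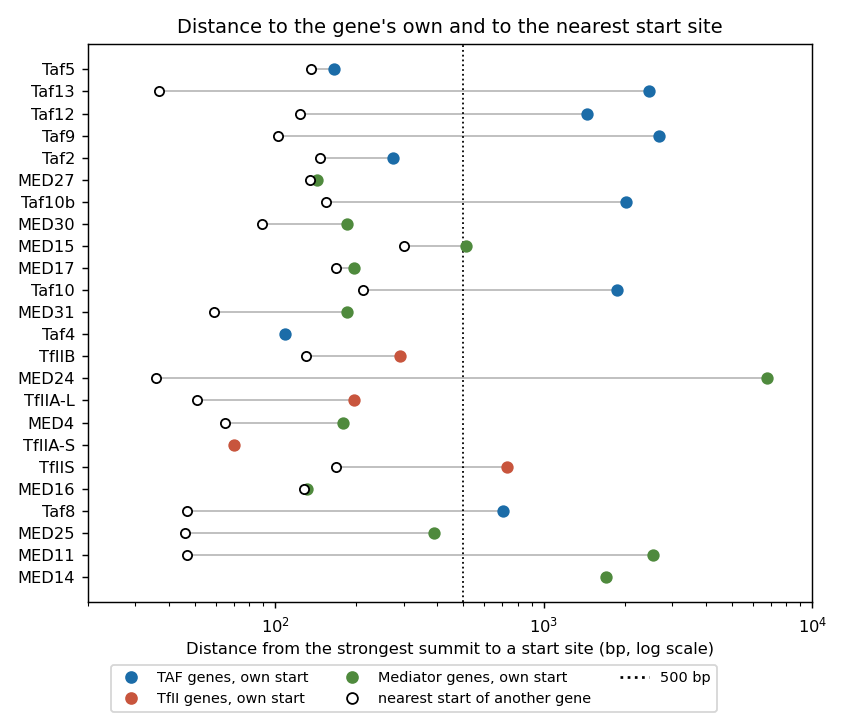
Distance in bp, on a log scale and without sign, from the strongest summit of each of the 24 bound genes to its own nearest start site (filled) and, where nearer, to the nearest start of another gene (open). In 21 genes another gene's start is nearer, and 11 own starts lie beyond the dotted line at 500 bp.

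A summit, of any strength, within 500 bp of an own TSS was found at 14 of the 49 genes (28.6%, interval 16.6 to 43.3%), against a background of 20.4% and 8.50 expected for genes of like length (1.65 times). These were 7 Mediator genes, 4 TAF genes and 3 TfII genes. Over the 13 genes whose strongest summit lay in this range it was upstream in every case, and over all 24 genes the median distance was -181 bp. Most such summits are upstream in general: 1972 of 2252 among bound protein-coding genes. Over all 5137 bound protein-coding genes, at any distance, the signed median was -80.0 bp. Without sign, the median distance was 339.5 bp for the 24 genes, 698 bp for bound genes of like length and 835 bp for all bound protein-coding genes.

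Divergent promoters were common among these genes. Of the 49 genes, 31 (63.3%) had the start of another gene on the other strand within 500 bp upstream, against 29.6% of all protein-coding genes; by family it was 18 of 25 Mediator genes, 9 of 15 TAF genes and 4 of 9 TfII genes. Genes with such a divergent start are bound more often in general, 51.9% against 30.5% of those without. Among the 31 divergent genes 15 were bound (48.4%, interval 30.2 to 66.9%), below the 51.9% of all divergent genes, and among the other 18 genes 9 were bound. With strata of both length and divergence, a choice made after the data were seen, the expected number was 19.5 and the ratio fell from 1.55 to 1.23. By family it was 1.49 for TAF, 1.38 for TfII and 1.04 for Mediator genes, and for summits within 500 bp of an own TSS 1.11. With strata of divergence alone the ratio was 1.11 for all 49 genes. It was then 1.38 for TAF, 1.11 for TfII and 0.957 for Mediator genes, and 0.993 for summits within 500 bp of an own TSS.

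**Figure D4:**
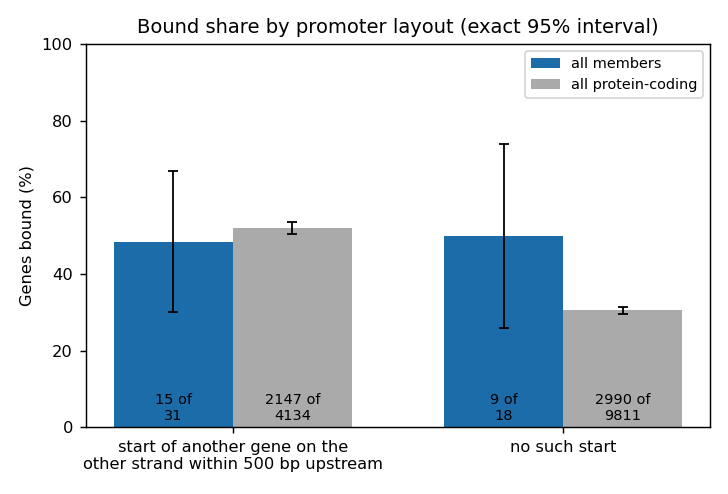
Share of genes bound, in percent, with and without the start of another gene on the other strand within 500 bp upstream, for the 49 genes and for all protein-coding genes, with exact binomial 95% intervals. Among divergent genes the bars stand at 48.4% and 51.9%, and the interval of the former, 30.2 to 66.9%, spans the latter.

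All 24 strongest summits lay in a peak of both replicate lists, at ranks 316 to 5644 in replicate 2 and 383 to 9111 in replicate 3. Of all 6152 optimal summits 6063 and 6049 lay in a peak of these lists, 5439 and 5334 of them within rank 6152, so these counts are close to those of optimal peaks in general. Of the 24 genes only MED11 (rank 9111) and MED14 (rank 7092) stood below rank 6152 in replicate 3, and none did in replicate 2. When the 6152 strongest peaks of 1 replicate were used in place of the optimal set, 27 of the 49 genes were bound in replicate 2 (background 38.5%, 1.66 times genes of like length) and 25 in replicate 3 (background 35.3%, 1.69 times). Of the 49 genes, 23 were bound in the optimal set and both replicates, and 22 in none of the 3. The optimal set was made from these 2 replicates, so the 3 lists are not independent. The share of all protein-coding genes with the same pattern was not computed. Among the 23, the call of MED14 in replicate 3 rests on another peak (rank 4367), 931 bp from its summit in the optimal set. MED11 lacked a summit among the strongest of replicate 3, and MED21 had one in replicate 2 only.

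MED7 and Taf11 were bound in both replicates but not in the optimal set. At MED7, of the middle module, a peak upstream of the start ranked 1443 in replicate 2 (signal 252, distance -91 bp) and 3262 in replicate 3 (signal 141, -36 bp). At Taf11, the partner of Taf13, the ranks were 3280 (signal 142, -142 bp) and 4727 (signal 109.9, -50 bp). The list called on pooled replicates had no peak at either site, so neither could enter the optimal set, whose 6152 peaks are all in the pooled list. Both genes have a divergent neighbour, Cap-H2 with its start 278 bp from that of MED7 and und 107 bp from that of Taf11. Such sites were rare: of 4770 peaks among the strongest 6152 of replicate 2 with a summit of like rank in replicate 3 within 200 bp, 50 (1.05%) lay in no pooled peak. This comparison was made after the values were seen, and its cause was not tested.

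**Figure D5:**
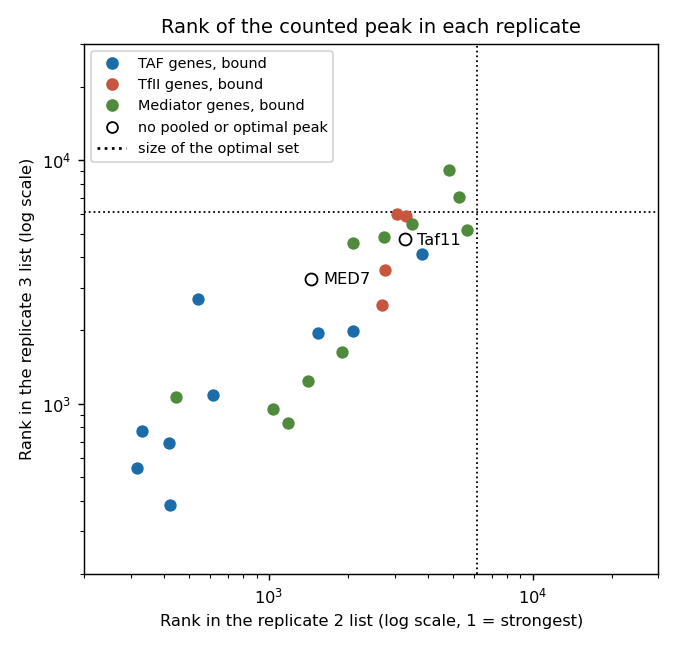
Rank of the peak counted at each gene in the list of replicate 2 and of replicate 3, both on log axes with 1 the strongest. Filled points are the 24 bound genes, open points are MED7 and Taf11, which have no peak in the pooled or optimal lists, and dotted lines mark the size of the optimal set, 6152.

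The other 25 genes had no summit of the optimal set within reach. MED6, of the head, came closest, with a summit 2633 bp from its body, while Taf10, at 1869 bp, was the bound gene with the most distant strongest summit. TfIIEbeta, MED10, MED18, MED28, Taf7 and Taf11 also had one within 4 kb, at 3975, 3206, 3970, 3692, 3698 and 3329 bp. Of the 25 genes, 11 had a weaker peak in the pooled list, with signals from 67.4 to 155 at their strongest, so that 35 of the 49 were reached by a pooled peak (background 65.9%, 1.17 times genes of like length). Among them were 3 of the 4 TFIIE and TFIIF genes: TfIIEalpha (155), TfIIEbeta (147) and TfIIFalpha (105). MED9, MED22, MED26, Taf3, Taf6, Taf12L and TfIIFbeta had no peak in any of the 4 lists. MED26 and Taf3 are the only 2 of the 49 genes on arm 4, where 12 of 80 protein-coding genes were bound. Taf12L is a paralogue of Taf12 known from the male germ line.

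Of 35 genes for TBP and its relatives, TFIIH, the Mediator kinase module, RNA polymerase II and TAFs outside the symbol rule, 17 were bound against 11.6 expected for their length (1.47 times, and 1.24 times with strata of length and divergence). Of 10 TFIIH genes 6 were bound against 3.22, led by Ssl1 (3125, at the start of Chro, 181 bp from its own) and Xpd, a helicase gene (317, -107 bp), with hay, Tfb4, Cdk7 and Mat1 unbound. Of 12 polymerase subunit genes 6 were bound against 3.25, led by Polr2C (2739.7, at the start of CenG1A) and Polr2B, for the second-largest subunit (828, -102 bp), with Polr2D, Polr2E, Polr2G, Polr2J, Polr2K and Polr2L unbound. In the kinase module skd alone of 4 genes was bound (302) against 1.76, and kto, Cdk8 and CycC were not. The strongest summit of skd lay 18258 bp from its own start, with the start of scaRNA:PsiU6-40 nearest. Trf2 was bound (226, -1518 bp) and Tbp and Trf were unbound, 1 of 3 against 1.24. Of the testis paralogues of TAFs nht was bound (296, -1083 bp) and can, mia and sa were unbound, 1 of 4 against 1.31. The RNA polymerase I factors TAF1C-like (3196, at Fkbp14) and TAF1B (186, -104 bp) were both bound, against 0.807. At 7 of these 17 genes (41.2%) the own start was nearest.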

How the data were processed

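The deposited files used were 4 peak lists on dm6: an optimal set of 6152 peaks derived by irreproducible discovery rate, a list on pooled replicates and 1 list per replicate (30000 peaks each), per the text deposited beside them. The signal of a peak is the authors' deposited enrichment value, with no scale stated; the −log10 q-value is also the authors' and was not used further, since it is the same for every optimal peak. Values rank peaks within a list only. Depth in reads is unknown, aligner, caller and thresholds being not given in the sources used here, and the control was not analysed here. The labels call the replicates biological and do not say how embryos were collected.

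Genes and start sites came from Ensembl release 115 without transposable elements, and sequence from RefSeq Release 6; every peak lay within its arm. Summits are column 2 plus column 10. Expected counts are the bound shares of protein-coding genes that are not in the list, in 10 strata of gene length. Intervals are exact binomial at 95%; no p-value was computed, since the genes form a list chosen by name and there is 1 group. Python 3.11.15, numpy 2.4.6, scipy 1.17.1 and matplotlib 3.10.9 were used, and the counting was tested on simulated summits. The genes, lists and motifs were chosen with earlier results of these data known. Genes are named as bound or unbound throughout, with full values for the 12 strongest and 4 weakest bound genes, summits nearest to other genes, unbound genes with a summit within 4 kb, shared summits and, of the other genes, the 2 strongest and the unbound ones per role; MED7, Taf11 and MED21 were singled out after their values were seen. e(y)1, bip2 and rye were the listed older symbols of Taf9, Taf3 and Taf12L, and Tfb2 that of mrn. Alternatives covered the flank, the rule for a bound gene, peak strength, strata, the peak list, each replicate and the motif window. The neighbour of 1 bound gene is not reported here.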

Additional observations from a re-analysis of the deposited data

How the results depend on the processing

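Of 73 values under alternatives, over 18 results, 64 stayed within the interval of the main value (for counts per replicate, within 1.5 times) and, for ratios, on the same side of 1, 4 moved beyond it and 5 changed sides. With each summit given only to the gene with the nearest TSS, the ratio to genes of like length changed to 0.452 for all genes, 0.341 for TAF and 0.223 for Mediator genes; by construction this removes summits nearer to a neighbour. For TAF genes it was 0.964 with all pooled peaks and 2.64 in the stronger 50% of peaks, where TfII genes were at 0.621; the causes were not tested. With windows of 25 bp each side, ATCGATA and CATATG were found in 0% and TAATTA in 4.17% of the summits; a narrower window can only lose matches. Over flanks of 500 bp and 5 kb the ratio for all genes was 1.40 and 1.35, without strata 1.33, and without replicate 2 or replicate 3 it was 1.69 and 1.66. With flanks of 5 kb the median signal was 619, against 408. No paired analysis was possible because there is 1 group. Depth is unknown, so an unbound gene is one without a peak in these lists, not one shown to lack the protein.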

Other observations

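The 9 summit windows with TATAAA all belonged to the 12 strongest of the 24 bound genes: Taf5, Taf13, Taf12, Taf9, Taf2, MED27, Taf10b, MED17 and Taf10. None of the 12 weaker windows held it, but with 100 bp on each side 2 of the weaker genes, TfIIS and MED25, and MED31 of the stronger ones did too. Among summits within 500 bp of a TSS, split at the same rank (1764), 28.4% of 783 stronger and 20.4% of 1691 weaker ones held TATAAA. GC content moved with this split: the median was 27.2% in the 12 stronger windows of these genes and 34.2% in the 12 weaker ones, and 28.7% and 34.7% in the promoter summits. The split was chosen after the windows were seen, no test was made, and the part of base composition in it was not tested. The position of these matches relative to a start site was not examined, so they are not called TATA boxes.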
